A study of Homo sapiens with 10 samples.

Results

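The HOX genes encode homeodomain transcription factors and stand in 4 clusters, HOXA, HOXB, HOXC and HOXD. The 38 symbols listed for them were matched by name to the 42335 gene symbols of the expression table, and 36 had a row. HOXC12 and HOXD12 were not analysed here. The study followed H9 cells, a human embryonic stem cell line, through neural differentiation and measured gene expression by bulk RNA sequencing. Wild-type cells (Ctrl) and cells with the genotype SOX1-OT V1 PAKI (V1PAKI) each gave 1 library at d0, d4, d10, d16D and d16V, 10 libraries in all. SOX1-OT is a noncoding gene beside SOX1, and the meaning of PAKI, D and V is not explained in the labels, which also do not say whether V1PAKI is a single clone. Both lines were grown as floating embryoid bodies, received neural medium from day 4 and were attached on day 7. The protocol describes hedgehog protein and the agonist SAG from day 10 for ventral telencephalon, without naming the libraries that received them.

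Within each cluster the genes lie in the order in which they are used along the body axis. Members with low paralogue numbers are used from the hindbrain onward, and those with high numbers in the lower trunk, limbs and urogenital tract. Forebrain cells, which the ventral telencephalon arm of the protocol aims at, normally keep the clusters silent, while hindbrain, spinal cord and trunk mesoderm use them. HOX proteins bind DNA with TALE cofactors of the PBX, MEIS and PKNOX families. Retinoic acid and the caudal factors CDX1, CDX2 and CDX4 switch clusters on, and Polycomb proteins hold them off.

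In the GENCODE v29 annotation of GRCh38 the HOXB members span bases 48528526 to 48729178 of chromosome 17, on the minus strand. The HOXC members lie on the plus strand of chromosome 12 at 53938765 to 54056030, the HOXA members on the minus strand of chromosome 7 at 27100354 to 27200106, and the HOXD members on the plus strand of chromosome 2 at 176092891 to 176190907. The level of each member can depend on how reads were divided between close paralogues or overlapping genes. The homeobox, the stretch of coding sequence that encodes the DNA-binding domain, is therefore shown for HOXB6 and HOXC6. Each run is 180 bases, 5′ to 3′ on the coding strand, in the last exon, from GENCODE v29 on GRCh38. Capitals mark the bases that differ within the pair.
HOXB6 (chr17:48596473-48596652): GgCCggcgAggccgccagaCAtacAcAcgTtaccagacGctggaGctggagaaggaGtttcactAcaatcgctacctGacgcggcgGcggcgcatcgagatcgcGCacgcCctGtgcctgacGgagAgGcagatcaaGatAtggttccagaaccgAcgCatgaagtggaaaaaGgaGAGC
HOXC6 (chr12:54029675-54029854): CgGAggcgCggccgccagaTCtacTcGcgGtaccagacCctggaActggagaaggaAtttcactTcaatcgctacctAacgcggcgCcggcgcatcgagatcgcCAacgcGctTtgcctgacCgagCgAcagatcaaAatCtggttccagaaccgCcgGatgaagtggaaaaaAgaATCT
HOXB6 and HOXC6 differed at 31 of the 180 bases, and their longest identical run was 17 bases. Across whole transcripts, 12 of the 36 members shared a stretch of 50 bases with another member. HOXB2, HOXB8 and HOXC8 shared none, whereas 14.6% of the 50-base windows of HOXB6 and 16.3% of those of HOXC4 were shared. Values of the sharing members are uncertain to that extent. Apart from HOXB3 with HOXD3, members shared such stretches only within their own cluster, and HOXB6 and HOXC6 shared none with each other. By exon position, 18 members share exon bases with a gene on the same strand and 18 with a gene on the opposite strand. The same-strand overlap covers 16.6% of the exon bases of HOXB6 and 17.8% of those of HOXC4. It may in part be the same sequence as the shared windows. Whether counting used strand is not given in the sources used here, and reads of antisense partners cannot be told apart. HOXD3 (62.2%) and HOXD4 (80.5%) share over 50% of their exon bases with a gene on the same strand.

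RefSeq promoter windows of GRCh38.p14, 250 bases before to 50 after a start, were found for 20 of the 38 listed genes. HOXB1 is the only HOXB gene among them, and none of the 8 genes tested for change (HOXB2 to HOXB8 and HOXC8) has one. The 27 windows include 7 of HOXA3, and those of HOXC4 and HOXC5 are identical. Windows of HOXB1 and HOXA2 are shown because both genes are known hindbrain genes and both were highest in the same library (below). The capitals mark TGATNNAT, a paired PBX and HOX recognition sequence, searched on both strands.
HOXB1 (chr17:48530962-48531261, minus strand): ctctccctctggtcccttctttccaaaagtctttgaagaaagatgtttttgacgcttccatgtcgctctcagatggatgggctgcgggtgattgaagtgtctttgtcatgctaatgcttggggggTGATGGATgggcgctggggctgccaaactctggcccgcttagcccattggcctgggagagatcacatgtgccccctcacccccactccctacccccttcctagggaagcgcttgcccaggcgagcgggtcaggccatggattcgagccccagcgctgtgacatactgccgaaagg
HOXA2 (chr7:27102634-27102933, minus strand): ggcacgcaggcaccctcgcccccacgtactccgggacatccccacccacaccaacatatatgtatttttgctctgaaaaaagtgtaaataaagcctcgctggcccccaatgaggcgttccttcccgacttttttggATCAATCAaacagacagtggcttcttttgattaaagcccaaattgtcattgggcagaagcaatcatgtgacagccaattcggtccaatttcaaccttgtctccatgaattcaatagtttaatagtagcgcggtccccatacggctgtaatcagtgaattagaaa
HOXA2 carries the sequence on the reverse strand of its window. TGATNNAT occurred in 3 of 27 windows of HOX genes (HOXA2, HOXB1 and HOXD11) and in 7.40% of 35116 RefSeq windows. TTTATGG, a sequence bound by caudal factors, occurred in 1 of 27 (HOXD8) and in 2.54% of all windows. AGGTCA, a half-site of the retinoic acid receptor, occurred in 0 of 27 and in 13.8% of all. These matches are descriptions of letters in short windows. The HOX windows held a median of 22 CpG pairs, against 14 over all windows.

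The libraries did not hold neural cells alone. FPKM, a level scaled for transcript length and for the fragments in a library, summed to between 200509 and 256270 per library, and 10193 to 15177 genes were listed at 0. Libraries from d4 on are labelled as neural progenitors. The summed level of 7 neural progenitor markers was 62.4 to 67.5 FPKM at d4 and 293 to 547 at day 16, while that of 6 pluripotency markers was 1073 and 1112 at d4 and 121 to 255 at day 16. SOX1 and HES5 lay below 0.5 FPKM in both d4 libraries. Genes of mesenchyme, mesoderm and endoderm were also present after d0, and their values are given with the HOX results.

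HOX expression was mostly HOXB expression. Of the 36 members with a row, 12 reached 1 FPKM in at least 1 library, 9 of 10 in HOXB, 2 of 8 in HOXC (HOXC6 and HOXC8), 1 of 10 in HOXA (HOXA2) and 0 of 8 in HOXD. The highest single values were 10.7 FPKM for HOXB2, 9.13 for HOXB8, 8.63 for HOXB6 and 5.47 for HOXC8. HOXB supplied 66.4% to 86.4% of the summed HOX level in the 7 libraries after d0 other than V1PAKI d16V, and HOXC 7.95% to 27.1%. The highest HOXD value was 0.229 FPKM (HOXD13). By axial class, 4 of 7 anterior members (paralogues 1 to 3), 7 of 15 central members (4 to 8) and 1 of 14 posterior members (9 to 13) reached 1 FPKM. The other 24 members lay below 1 FPKM in every library, with a median highest value of 0.195, and 8 of them stayed below 0.1.

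**Figure D1:**
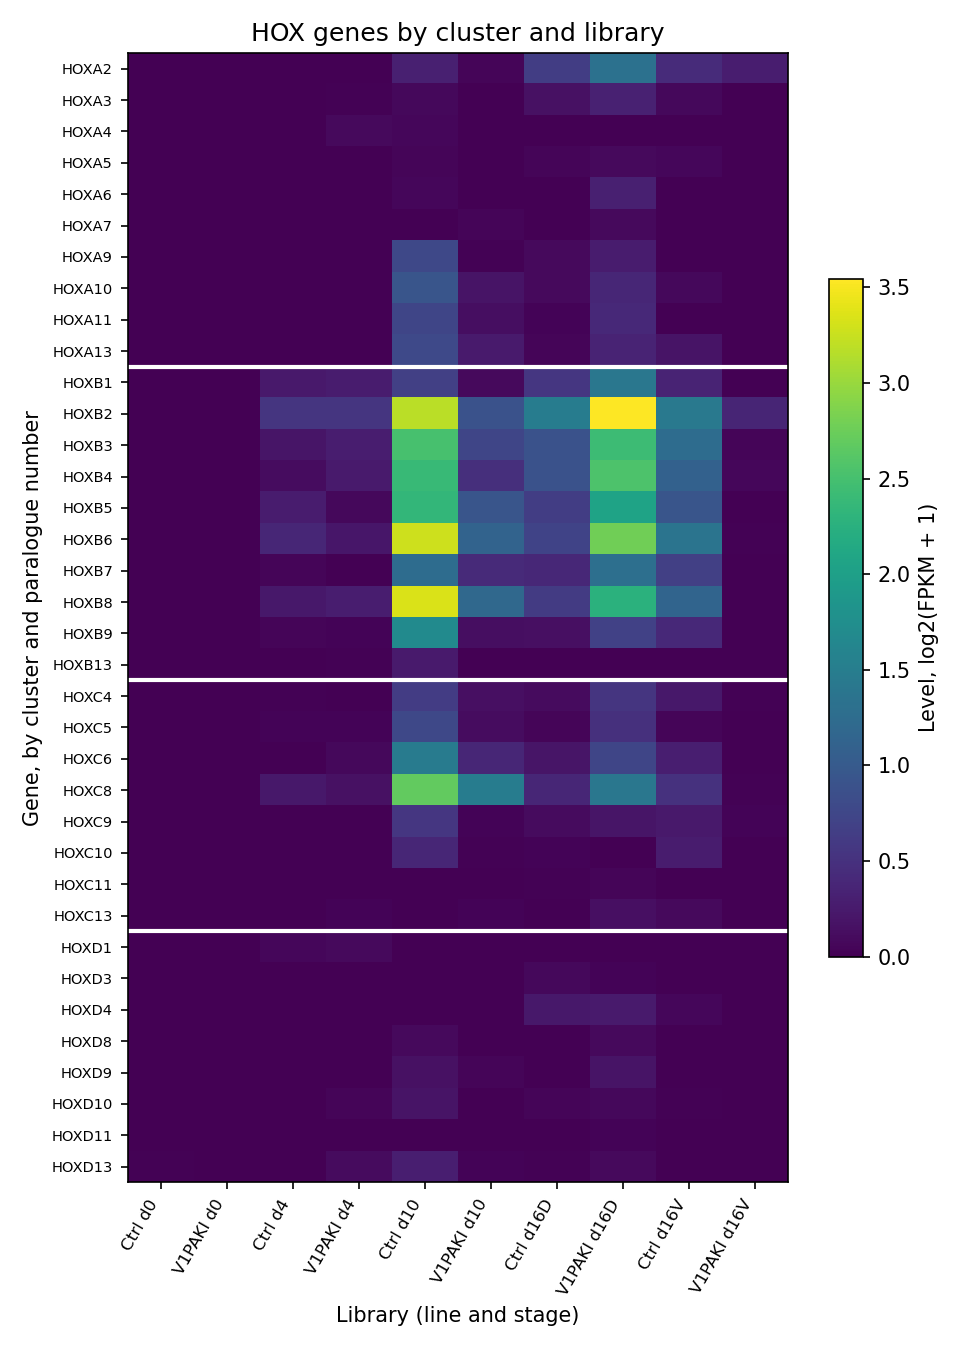
Expression of the 36 HOX genes with a row (rows, by cluster and paralogue number) in the 10 libraries (columns, by line and stage), coloured by log2(FPKM + 1). The coloured block lies in HOXB2 to HOXB9 with HOXC6 and HOXC8, and is strongest in Ctrl d10 and V1PAKI d16D.

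Stem cells were almost without HOX RNA. At d0 only HOXA13 (0.00943 FPKM) and HOXD13 (0.0141 FPKM) were above 0 in Ctrl, and all 36 members were listed at 0 in V1PAKI. At d4 the summed HOX level was 1.89 FPKM in Ctrl and 1.99 in V1PAKI, and 0 members reached 1 FPKM in either line. The highest member at d4 was HOXB2, at 0.455 and 0.458 FPKM. From d10 on the lines parted, in opposite directions at d10 and d16D. The sum was 56.4 FPKM in Ctrl and 8.75 in V1PAKI at d10, a 6.45-fold higher level in Ctrl. At d16D it was 8.00 in Ctrl and 43.8 in V1PAKI, 5.47-fold higher in V1PAKI. At d16V it was 11.1 in Ctrl and 0.654 in V1PAKI, 16.9-fold higher in Ctrl. In bulk libraries, fewer cells of a type and less RNA per cell cannot be told apart.

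The anterior genes HOXB2 and HOXB3 pattern the hindbrain and its cranial motor neurons. HOXB2 stood at 0, 0.455, 8.03, 1.80 and 1.71 FPKM in Ctrl at d0, d4, d10, d16D and d16V, and at 0, 0.458, 0.866, 10.7 and 0.290 in V1PAKI. HOXB3 stood at 0, 0.154, 4.70, 0.858 and 1.38 FPKM in Ctrl and at 0, 0.217, 0.664, 4.39 and 0.0297 in V1PAKI, in the same order of stages. Both genes were high in Ctrl d10 and V1PAKI d16D and at least 2 FPKM lower in every other library. HOXB1, which marks a single hindbrain segment, and HOXA2, a gene of the hindbrain and the second branchial arch, are named after their values were seen. HOXB1 reached 1.66 FPKM in V1PAKI d16D, with 0.597, 0.468 and 0.276 in Ctrl d10, d16D and d16V. HOXA2 reached 1.51 FPKM in V1PAKI d16D, with 0.564 in Ctrl d16D and 0.242 in Ctrl d10. These were the 2 members that reached 1 FPKM in V1PAKI d16D and not in Ctrl d10.

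The central genes HOXB4 to HOXB8 and HOXC8 act at neck and trunk levels, in spinal cord and in mesoderm, and HOXB4 is also known from blood stem cells. HOXB4 stood at 0, 0.0855, 4.21, 0.856 and 1.15 FPKM in Ctrl and at 0, 0.189, 0.396, 4.90 and 0.0420 in V1PAKI, again by stage from d0 to d16V. HOXB5 stood at 0, 0.211, 4.08, 0.566 and 0.913 in Ctrl and at 0, 0.0548, 0.912, 3.16 and 0 in V1PAKI. HOXB6, a gene of lateral plate mesoderm and its derivatives, differed more between the lines at d16D than its neighbours. It stood at 0, 0.300, 8.63, 0.633 and 1.56 FPKM in Ctrl and at 0, 0.155, 1.18, 5.82 and 0.0155 in V1PAKI. HOXB7 stood at 0, 0.0350, 1.38, 0.317 and 0.586 in Ctrl and at 0, 0, 0.344, 1.45 and 0 in V1PAKI. HOXB7 was thus the lowest of the HOXB4 to HOXB8 run in each line's highest library, between neighbours with higher levels.

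HOXB8, a trunk gene with a further role in blood and microglia, was the highest member of Ctrl d10. It stood at 0, 0.176, 9.13, 0.531 and 1.20 FPKM in Ctrl and at 0, 0.213, 1.29, 3.80 and 0 in V1PAKI. HOXC8, which acts in thoracic skeleton and in motor neurons at forelimb level, was the highest member of V1PAKI d10. It stood at 0, 0.166, 5.47, 0.298 and 0.417 in Ctrl and at 0, 0.116, 1.80, 1.65 and 0.0187 in V1PAKI. HOXC8 was the one tested member without a V1PAKI peak at d16D, since its V1PAKI d10 and d16D values were close. HOXC6, named after its values were seen, reached 1.78 FPKM in Ctrl d10 and 0.676 in V1PAKI d16D.

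Among posterior genes, which act in the lower trunk and limbs, HOXB9 reached 2.23 FPKM in Ctrl d10 and 0.607 in V1PAKI d16D. In Ctrl d10 the 4 posterior HOXA members were above the 4 central ones, unlike HOXB. HOXA9, HOXA10, HOXA11 and HOXA13 had highest values of 0.664 to 0.911 FPKM, all in Ctrl d10, against 0.0594 to 0.239 FPKM for HOXA4 to HOXA7. In V1PAKI d16D these posterior HOXA genes stood at 0.212, 0.303, 0.330 and 0.283 FPKM, and all 4 were lower there than in Ctrl d10. The order did not hold throughout in V1PAKI d16D, where HOXA6 (0.239) was above HOXA9. These HOXA genes lie below 1 FPKM in every library, and HOXB9 reached 1 FPKM only in Ctrl d10. All are named after their values were seen and were not tested.

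**Figure D2:**
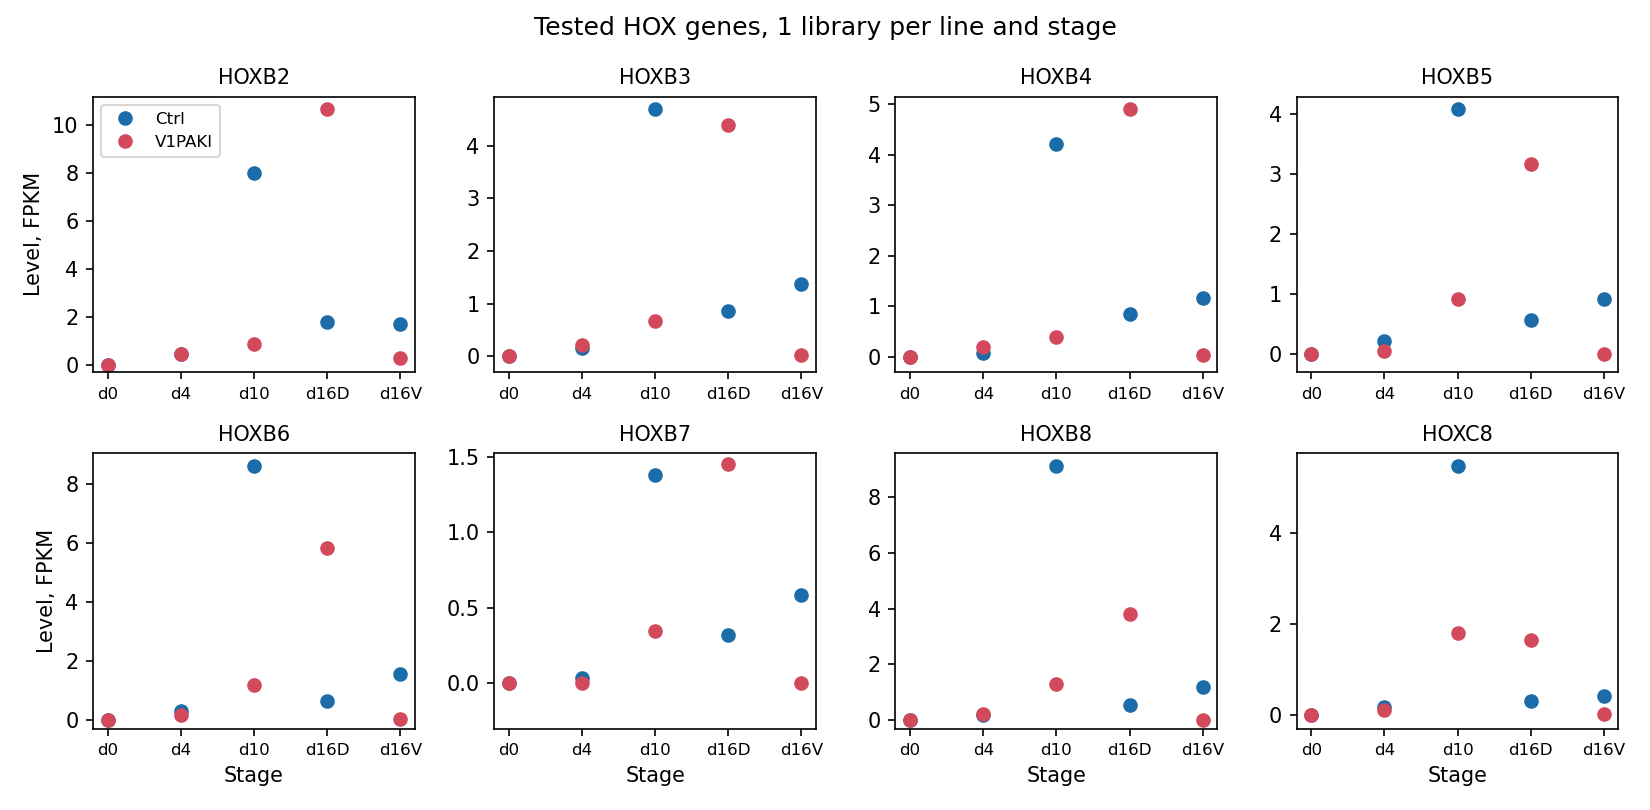
FPKM of the 8 tested HOX genes by stage, with 1 point per library (blue for Ctrl, red for V1PAKI) and a linear axis of its own for each gene. Ctrl is highest at d10 and V1PAKI at d16D for the 7 HOXB genes, while HOXC8 in V1PAKI has nearly the same level at d10 (1.80) and d16D (1.65).

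The level of HOX RNA and the balance of axial classes moved differently. Although Ctrl d10 and V1PAKI d16D held similar sums, anterior members made up 24.1% of the sum in the first and 42.3% in the second. Anterior shares were 24.1% and 18.6% in the d10 libraries of Ctrl and V1PAKI, and 34.0% to 48.3% in the d4 libraries, both d16D libraries and Ctrl d16V. The central share was 64.0% and 73.8% at d10 and 43.6% to 57.3% in those other libraries. The same held for a single pair of genes: HOXB2 was 0.879 and 0.672 times HOXB8 in the d10 libraries and 1.43 to 3.39 times HOXB8 elsewhere. Thus both lines had their lowest anterior share at d10, at sums that differed 6.45-fold. The posterior share was 11.9% in Ctrl d10 and 2.32% to 8.71% in the other 6 libraries. Shares were not computed for d0 and V1PAKI d16V, where sums were below 1 FPKM. With 1 library per line and stage, these shares have no replicate error.

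**Figure D3:**
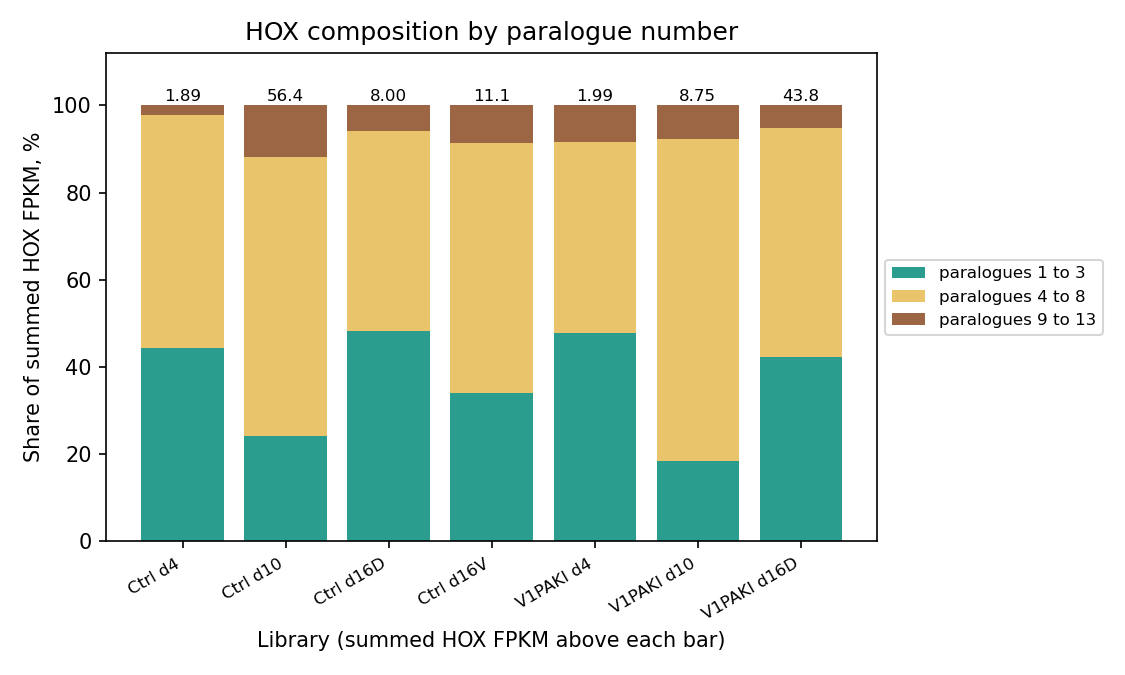
Share of the summed HOX level held by anterior, central and posterior members (stacked bars, percent) in the 7 libraries with a sum above 1 FPKM, with the sum in FPKM above each bar. Both d10 bars have the smallest anterior shares, 24.1% in Ctrl and 18.6% in V1PAKI.

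Differences between the lines at a single stage rest on 1 library each and were not tested. Genes reaching 1 FPKM in one or both lines at a stage were compared, and a gene was counted where V1PAKI minus Ctrl was at least 1, up or down, on the log2(FPKM + 1) scale. No HOX member entered at d0 or d4. The 10 members that entered at d10 all reached 1 FPKM in Ctrl, and 3 of them also in V1PAKI. The 10 at d16D all reached it in V1PAKI, and 1 also in Ctrl. The 5 at d16V reached it in Ctrl alone. For a member that entered through 1 line only, entry fixed the direction of the difference, so the counts below describe size more than direction. At d10, 9 of 10 such HOX members were lower in V1PAKI and 0 were higher, against 7.45% of all 14218 genes lower and 3.78% higher. The median difference was -1.67, from -2.27 (HOXB2) to -0.82 (HOXB7), with a median over all genes of -0.04. At d16D, 7 of 10 were higher in V1PAKI and 0 lower, against 5.50% of all 15194 genes higher and 3.46% lower, with a median of 1.47 and a range of 0.68 to 2.06. HOXB2 and HOXB6 had the highest values at d16D, both 2.06. At d16V, 5 of 5 were lower in V1PAKI and 0 higher, against 2.49% of all 14569 genes lower and 0.412% higher, with differences of -1.34 to -1.05. In linear terms the 8 tested members were 3.04-fold (HOXC8) to 10.7-fold (HOXB4) higher in Ctrl at d10, and 4.58-fold (HOXB7) to 9.20-fold (HOXB6) higher in V1PAKI at d16D.

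Low members mostly lay on the same sides. Over all 36 rows, V1PAKI was below Ctrl for 29 members, above for 2 and equal for 5 at d10. At d16D it was above Ctrl for 32, below for 2 and equal for 2, and at d16V it was below for 23, equal for 13 and above for 0. The equal members at d10 and d16V include those listed at 0 in both lines. From d10 to d16D, 23 of 36 members were lower in Ctrl and higher in V1PAKI, as were 7 of the 8 tested members and 22.0% of all 15779 tested genes. HOXC8 and HOXC10 were lower at d16D in both lines, and HOXA2, HOXA3, HOXA5, HOXC11, HOXD3 and HOXD4 were higher in both. Ctrl d10 and V1PAKI d16D were the 2 highest libraries for 20 of 36 members. Among tested genes they were so for 7 of 8 members and for 5.39% of all 15779. HOXB5 and HOXB7 were tested only because they reached 1 FPKM in these 2 libraries. The highest library was Ctrl d10 for 19 members, V1PAKI d16D for 14, and another for HOXA4, HOXD1 and HOXD3, which stayed at or below 0.0604 FPKM.

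**Figure D4:**
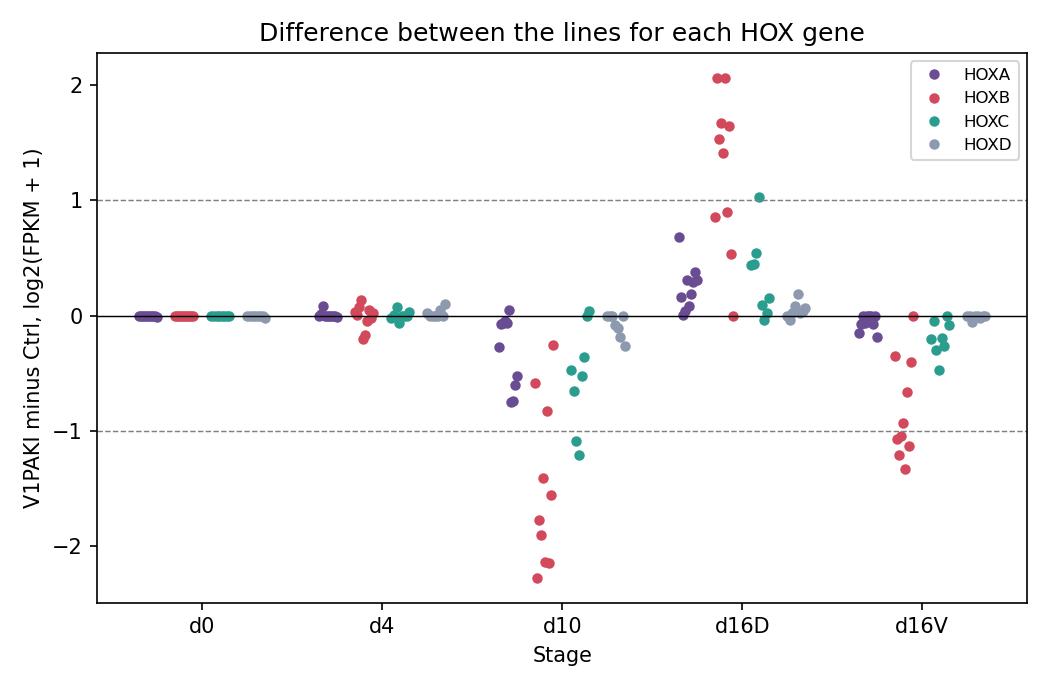
Difference V1PAKI minus Ctrl in log2(FPKM + 1) for the 36 HOX genes at each stage, with 1 point per gene, coloured by cluster, and dashed lines at 1 and -1. HOXB points reach -2.27 at d10 and 2.06 at d16D, all HOXD points lie near 0, and no replicate error exists at a single stage.

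Stage changes shared by both lines were tested with limma on all 10 libraries, with stage and genotype as terms and Benjamini-Hochberg adjustment over 15779 genes. Only 8 members, HOXB2 to HOXB8 and HOXC8, had at least 1 FPKM in 2 libraries and entered. From d4 to d10 all 8 were above 0, with a median log2 change of 1.48 against -0.01 over all genes. None passed: limma called 0 of 8, against 1.44% of all genes, and 3 of 8 had an unadjusted p below 0.05. HOXB8 had the highest change, 2.01 (SE 0.74, limma adjusted p = 0.254), and HOXC8 came nearest to a call, at 1.90 (SE 0.45, limma adjusted p = 0.0926). The SE of the 8 members was 0.39 to 0.83, and it includes the opposite differences between the lines at d10 and d16D. The size of these changes rests on 1 library: without Ctrl d10 the HOXB8 change was 0.87, that of HOXC8, then the highest, 1.24 and that of HOXB2 0.23, and without V1PAKI d10 they were 3.15, 2.57 and 2.76. All fitted members stayed above 0 whichever library was left out.

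The other comparisons called 0 of 8 members as well. For d4 against d0 the median change was 0.22, with 0 of 8 at an unadjusted limma p below 0.05 and 0.818% of all genes called. For d16D against d10 it was -0.14, with 4 members above 0 and 4 below (3 and 5 with a pseudocount of 0.1 or median-of-ratios scaling, which put HOXB7 below 0), 1 of 8 at an unadjusted p below 0.05 (HOXC8) and 0.932% of all genes called. For d16V against d10 it was -1.15, with all 8 below 0, 1 of 8 at an unadjusted p below 0.05 and 0.811% of all genes called. HOXC8 was again nearest, at -1.83 (SE 0.45, limma adjusted p = 0.108). For d16V against d16D the median was -0.95, with all 8 below 0, 0 of 8 at an unadjusted p below 0.05 and 0.361% called. For the mean of both day 16 libraries against d0 it was 1.08, with all 8 above 0 and 1 of 8 (HOXB2) at an unadjusted p below 0.05, whereas 32.4% of all genes were called. HOXB2 changed by 1.71 there (SE 0.72, limma adjusted p = 0.106). V1PAKI against Ctrl over the 5 stages gave a median of -0.24, with 0 of 8 at an unadjusted limma p below 0.05 and 0.0190% of all genes called. The genotype effects of the 8 members were -0.32 to -0.13, averaged over stages at which the lines differed in opposite directions. Their sign depended on the d10 libraries: the median was 0.14 without Ctrl d10 (6 of 6 fitted members above 0) and 0.13 without V1PAKI d10 (8 of 8 above 0). For d16D against d10 the median ranged from -1.51 without V1PAKI d16D to 0.88 without Ctrl d16D, and for d16V against d16D it was 0.11 without V1PAKI d16D, with 5 of 6 above 0. Leaving out Ctrl d16D or V1PAKI d16D left the HOXC8 change at 1.90 for d10 against d4 and at -1.83 for d16V against d10. Its SE was then 0.31 in both comparisons, below the 0.45 of the full fit. Without Ctrl d16D, the changes of the 8 members for day 16 against d0 were 0.91 to 2.43, with a median of 1.67.

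Genes of mesenchyme followed the same libraries. The 10 mesenchyme and fibroblast markers, all of which reached 1 FPKM, summed to 756 FPKM in Ctrl d10 and 1134 in V1PAKI d16D. They summed to 187 and 302 in Ctrl d16D and d16V, and to 176 and 17.0 in V1PAKI d10 and d16V. At d4 they summed to 49.1 in Ctrl and 55.7 in V1PAKI, and at d0 to 79.3 and 93.2. THY1, highest at d0 in both lines, alone stood at 58.8 and 67.5 FPKM there, and at 8.29 in V1PAKI d16V. COL3A1, a collagen of connective tissue, stood at 0, 6.32, 379, 102 and 161 FPKM in Ctrl and at 0, 9.48, 63.7, 701 and 3.44 in V1PAKI. LUM and DCN were listed at 0 at d0 in both lines. Ctrl d10 and V1PAKI d16D were the 2 highest libraries for 9 of these 10 markers and for 8 of 10 lateral and cardiac mesoderm markers, but for 0 of 7 neural progenitor and 0 of 6 neuron markers. In the 8 libraries after d0, the HOX sum ranged 86.3-fold and the mesenchyme sum 66.8-fold, whereas the first as a percentage of the second ranged from 3.58% to 7.47%. Its highest value was in Ctrl d10. The d0 libraries lie outside this range, since the HOX sum there was 0.0236 FPKM in Ctrl and 0 in V1PAKI. The corresponding percentage varied 4.94-fold for lateral and cardiac mesoderm, 11.1-fold for amnion and trophoblast and 14.8-fold for endoderm. It varied 21.4-fold for epithelium, 21.6-fold for endothelium and blood and 30.1-fold for neural crest. For pluripotency, neuron and neural progenitor markers it varied 130-fold, 257-fold and 310-fold. Mesenchyme, at 2.09-fold, varied least of the 10 marker lists. The part of these cell types in the HOX differences was not tested.

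**Figure D5:**
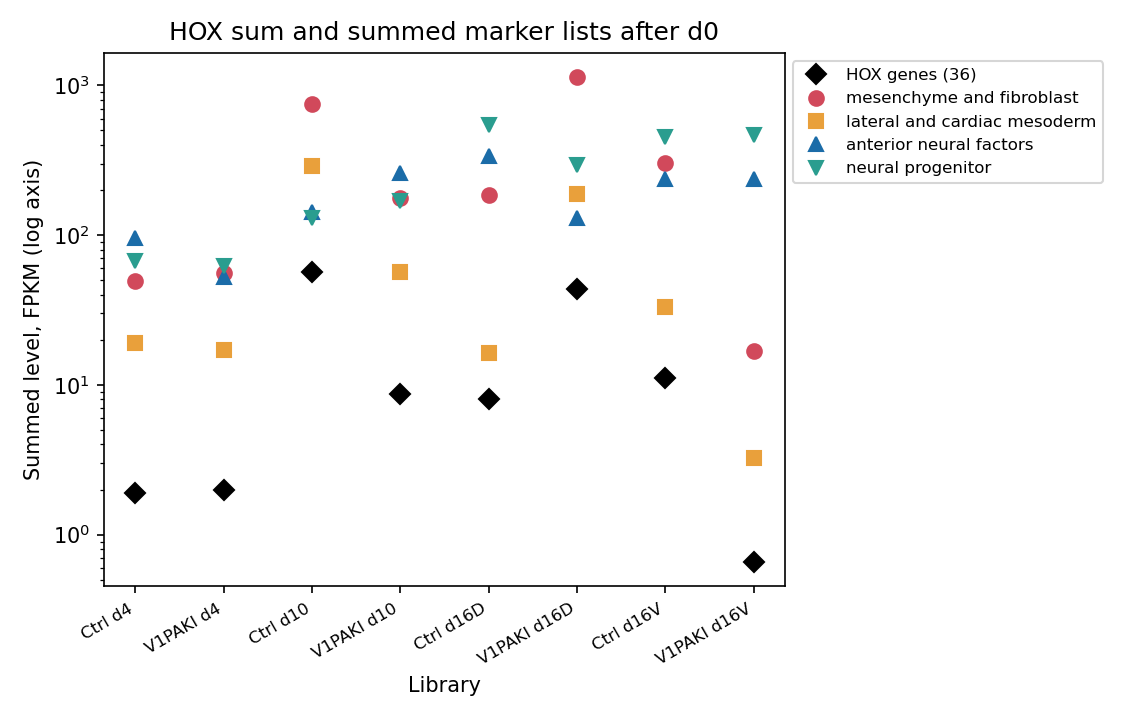
Summed level of the 36 HOX genes and of 4 gene lists (mesenchyme and fibroblast, lateral and cardiac mesoderm, anterior neural factors, neural progenitor) in FPKM on a log axis, in each of the 8 libraries after d0. The HOX sum lies at 3.58% to 7.47% of the mesenchyme sum in every library, while the neural progenitor sum is high in V1PAKI d16V, where the HOX sum is lowest (0.654).

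Mesoderm and endoderm markers also differed between the lines. Lateral and cardiac mesoderm markers summed to 291 FPKM in Ctrl d10 and 189 in V1PAKI d16D, against 16.3, 33.2, 56.9 and 3.24 in Ctrl d16D, Ctrl d16V, V1PAKI d10 and V1PAKI d16V. HAND1, a factor of extraembryonic and lateral mesoderm, stood at 223 and 41.4 FPKM in the d10 libraries of Ctrl and V1PAKI. TBX5 stayed at or below 0.353 FPKM and was listed at 0 in 7 of 10 libraries. Endoderm markers, led by AFP, summed to 207 FPKM in Ctrl d10 and 33.4 in V1PAKI d10, and to 416 and 2369 at d16D. Their sum did not follow the HOX sum in Ctrl, where it was higher at d16D than at d10. That rise came from AFP (53.0 to 226 FPKM), TTR (29.4 to 68.2) and ALB (0.340 to 12.0). The other endoderm markers of the list fell in Ctrl over this interval, from SOX17 (5.69 to 0.575) to APOA1 (115 to 107). Neural progenitor markers at d16D went the other way, at 547 FPKM in Ctrl and 293 in V1PAKI.

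Caudal and posterior axis factors, which act upstream of trunk HOX genes, shared the pattern in part. Ctrl d10 and V1PAKI d16D were the 2 highest libraries for 6 of 11. CDX2, named after its values were seen, stood at 0, 0.176, 3.45, 0.483 and 0.383 FPKM in Ctrl and at 0, 0.0911, 0.176, 3.24 and 0 in V1PAKI. TBXT, the factor of primitive streak and tailbud, was also seen first in its values, at 3.93 and 0.428 FPKM in the d10 libraries of Ctrl and V1PAKI and at 0.548 and 5.57 at d16D. By limma, 0 of 8 tested factors were called for d10 against d4, with 0 of 8 at an unadjusted p below 0.05. For day 16 against d0, 3 of 8 were called, a share near the 32.4% of all genes: GDF11 (1.75) and WNT3A (1.23) rose and NKX1-2 fell by 2.03 on the log2 scale.

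The cofactors did not share the pattern. Ctrl d10 and V1PAKI d16D were the 2 highest libraries for 0 of 9 TALE genes. MEIS2 stood at 0, 0.401, 2.97, 7.69 and 2.70 FPKM in Ctrl and at 0.00909, 0.364, 2.52, 4.74 and 2.48 in V1PAKI, so its d10 values were close while HOXB2 differed 9.28-fold. From d4 to d10 limma called 2 of 9, both higher: MEIS2 by 1.43 (SE 0.22, adjusted p = 0.0329) and MEIS1 by 1.21 (SE 0.22, adjusted p = 0.0487). For day 16 against d0, where 32.4% of all genes were called, 5 of 9 rose, led by MEIS2 (2.32) and PKNOX2 (1.89), and PKNOX1 fell by 0.62.

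Of the 18 retinoic acid genes, V1PAKI d16D was the highest library for 8 and Ctrl d10 for 0. CYP26A1, which breaks down retinoic acid, stood at 0.822, 47.5, 14.5, 4.91 and 7.22 FPKM in Ctrl and at 4.15, 33.9, 16.1, 9.07 and 5.54 in V1PAKI. It was highest at d4 in both lines, when HOX sums were below 2 FPKM, and was the 1 of 14 tested genes called for d4 against d0, at 3.75 (SE 0.45, limma adjusted p = 0.0240). From d4 to d10 limma called 0 of 14, with 4 at an unadjusted p below 0.05. Between the day 16 arms 2 of 14 were lower in d16V than in d16D: ALDH1A3 by -2.32 and RDH10 by -1.40, enzymes of retinoic acid synthesis (limma adjusted p = 0.0340 and 0.0369). For day 16 against d0 it called 6 of 14 higher and 1 lower, against 32.4% of all genes called.

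Hindbrain and border genes gave a further reference. From d4 to d10, 3 of 5 tested genes rose by limma: PAX2 (2.60), FGF8 (2.44) and PAX8 (1.49), which mark the midbrain-hindbrain border. Their list summed to 27.0 FPKM in Ctrl d10 and 30.1 in V1PAKI d10, close values at a stage where HOX sums differed 6.45-fold. Anterior neural factors, which mark regions ahead of HOX expression, were lower in Ctrl than in V1PAKI at d10 (142 against 258 FPKM) and higher at d16D (337 against 129), the reverse of the HOX sum at both. At d16V the lines stood at 239 and 236 FPKM. From d4 to d10, LHX2 (4.08) and RAX (3.18) rose, 2 of 9 tested by limma. Among 15 Polycomb and trithorax genes limma called 0 for d10 against d4, with 2 at an unadjusted p below 0.05. For day 16 against d0 it called 6 of 15, a share near the 32.4% of all genes called: 5 were higher, led by KDM6B (2.63), an enzyme that removes the Polycomb mark, and BMI1 (2.05), and 1 lower (KDM6A, -1.25).

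Noncoding RNAs of the clusters were present at similar low levels. Of 18 listed, 14 had a row and 4 reached 1 FPKM, and their sums were 6.48 and 0.669 FPKM in the d10 libraries of Ctrl and V1PAKI and 2.41 and 7.76 at d16D. HOTAIRM1, transcribed beside the anterior end of HOXA, stood at 0, 0.139, 0.838, 1.48 and 0.328 FPKM in Ctrl and at 0, 0.0764, 0.295, 2.21 and 0.198 in V1PAKI. Like HOXA2, it was higher at d16D than at d10 in both lines. It was the 1 call among the 3 tested, for day 16 against d0, at 0.92 (SE 0.21, limma adjusted p = 0.0149). That is a share near the 32.4% of all genes called there.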

How the data were processed

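Expression was measured in 10 libraries, 1 per line and stage, grouped by their titles. The authors deposited FPKM values for 42335 gene symbols. Reads were handled with cutadapt 1.18, HISAT2 2.1.0 and Cufflinks on GRCh38, per the submitters' processing notes. The strand setting and gene models were not given in these sources. Per the labels' protocols, total RNA went into Illumina TruSeq libraries. Depth is unknown, since no whole-read steps were seen among low values, and no counting intervals were given; a gene at 0 is described as listed at 0.

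Values were analysed as log2(FPKM + 1), which understates changes of low genes. The 15779 genes with at least 1 FPKM in 2 libraries were fitted with limma 3.58.1 in R 4.3.3 (lmFit, eBayes with trend, stage and genotype as additive terms, 4 residual degrees of freedom, 7.77 after moderation). Tests were two-sided, with Benjamini-Hochberg adjustment over all tested genes and a threshold of 0.05. No repeated cultures exist, so the error behind the p-values is the spread left after the stage and genotype terms. That spread includes any stage-specific difference between the lines. Sequences and motifs were read with python 3.11.15.

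The members, gene lists, tests and naming rule were chosen with earlier results of these data known. Every library's value is given for members that reached 1 FPKM in 2 or more libraries, and of other lists up to 4 genes per comparison, by size of change among called genes. HOXC12 and HOXD12 were not analysed here. In 18 alternatives the pseudocount, filter, scaling, trend, genotype term, averaging of the day 16 arms or 1 library was changed.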

Additional observations from a re-analysis of the deposited data

Results flagged for a closer look

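From d10 to d16D, 23 of the 36 HOX members with a row were lower in Ctrl and higher in V1PAKI, so the lines moved in opposite directions over the same interval. For HOXB2 the values went from 8.03 to 1.80 FPKM in Ctrl and from 0.866 to 10.7 FPKM in V1PAKI, and for HOXB6 from 8.63 to 0.633 and from 1.18 to 5.82. Among tested genes, the same held for 7 of 8 members and for 22.0% of all 15779. With 1 library per line and stage, the difference between the lines was not tested. Mesenchyme markers went from 756 to 187 FPKM in Ctrl and from 176 to 1134 FPKM in V1PAKI over this interval, and their part in the result was not tested.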

How the results depend on the processing

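The count of members called for day 16 against d0, 0 as reported, was 1 with a pseudocount of 0.1 (HOXB2) and 1 with no filter (HOXD4, 36 tested). It was 2 with FPKM rescaled to TPM (HOXA2 and HOXB2, 18 tested). Over all genes, 5083, 3959 and 6588 were called in these 3 settings, against 5114 in the reported fit. Leaving out each library in turn gave 0 to 6 for day 16 against d0, 0 to 1 for d10 against d4 and 0 to 1 for d16V against d10, with calls without Ctrl d16D or V1PAKI d16D only. TPM sets each library to the same total, above the FPKM sums of 200509 to 256270, so every value above 0 rose. The threshold and pseudocount stayed at 1 and were thus lower in FPKM terms. Members at or above 1 then numbered 2, 20, 10 and 12 in Ctrl d4, d10, d16D and d16V and 1, 9, 20 and 2 in V1PAKI. Members counted as differing numbered 19 lower at d10, 16 higher at d16D and 11 lower at d16V. Rescaling to TPM shifted the median of all genes by 0.21 for day 16 against d0 and by 0.11 between the lines at d10. Median-of-ratios scaling gave 3 lower at d16V and shifted the median between the lines by -0.16 at d0 and 0.10 at d16D. Neither scaling changed the sign of a difference between the lines for members at 1 FPKM or more, while HOXB7 for d16D against d10 changed from 0.01 to below 0 with a pseudocount of 0.1 and with median-of-ratios scaling. Leaving out 1 library changed signs among the tested members in 5 of the 7 comparisons: d4 against d0 (HOXB4 or HOXB7), d16D against d10, d16V against d10 (HOXB2 and HOXB4, without Ctrl d10), d16V against d16D and V1PAKI against Ctrl; none changed for d10 against d4 or day 16 against d0. The labels carry no replicate numbers, so no replicate block could be fitted; the comparison of the lines over the stages is itself paired by stage. Without depth or replicates, no error can be given for values at a single stage.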
